A study of Mus musculus with 8 samples.

Results

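A set of 10 genes of the NRF2 and antioxidant defence were read out of hippocampal RNA-seq of female mice given the adrenal androgen precursor DHEA (dehydroepiandrosterone) or its vehicle. They were the rows of the deposited count table with the symbols Nqo1, Hmox1, Gclc, Gclm, Txnrd1, Srxn1, Slc7a11, Gsta4, Gpx4 and Sod1, or 10 of the 29442 genes listed. Of the listed genes 27612 had at least 1 count and were tested, and all 10 were among them. The mice were 6 to 8 week old C57BL/6 J females that received DHEA at 30 mg/kg/day (test group, 4 libraries: HipR3, HipR4, HipR7 and HipR11) or sesame oil (control group, 4 libraries: HipR5, HipR10, HipR16 and HipR9) by subcutaneous injection for 21 days. No gene was altered in either group, and the methods state ventral hippocampus where the labels state hippocampus. The mice had gone through behavioural tests before dissection. Between 31483772 and 38038361 reads were counted on genes per library, and 1 count was worth 0.0269 to 0.0317 CPM (counts scaled to a common library total, TMM-normalized). The DHEA libraries had the larger totals, 35748416 to 38038361 as against 31483772 to 35418297 counts, without overlap. The Spearman correlation of log2 CPM with GC content across genes was also separate, between -0.0803 and -0.068 in the DHEA libraries and between -0.0622 and -0.0557 in the controls. No pair of libraries within a group was as alike as sampling noise alone would make it, so none was treated as a library deposited more than once. The labels do not say that each library came from a separate animal.

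Directions in the text follow the deposited labels, and a positive log2 fold change means a higher level under the label DHEA. The study's own list of DEGs, its qRT-PCR of further samples and its western blot of AVPR1a are signed the other way for the genes they name. If the labels are crossed, every direction given here would turn over. A list taken as sesame oil over DHEA would turn the list alone, and not the qRT-PCR or the western blot. By the labels, Pomc had a log2 fold change of -1.16 and Avpr1a one of 1.46, at means of 52.9 and 16.4 counts. The libraries HipR3 and HipR4, both labelled DHEA, stood apart from the other libraries on the first principal component, which held 33.4% of the variance. The calls of members, pathway genes and marker lists are given with and without them. The tissue label was met by the hippocampal genes Neurod6, Prox1 and Wfs1, at mean FPKM (counts per length and library total) of 105, 15.2 and 29.3. HipR9 and HipR11 carry a separate run of accession numbers, which the labels do not explain, and the design text of the series counts 6 tissues where 8 libraries were deposited.

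NRF2, encoded by Nfe2l2, is a transcription factor that KEAP1 and CUL3 keep low by marking it for degradation. Electrophiles and oxidants disable KEAP1, and NRF2 then pairs with a small MAF protein on antioxidant response elements in the promoters and enhancers of its targets, where BACH1 competes for the same place. In brain this programme is best known from astrocytes, which supply neurons with glutathione precursors. Gpx4 and Sod1 are abundant enzymes that most cells make without induction, and the other members are inducible by NRF2 in many tissues.

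The core of the antioxidant response element, TGACNNNGC on either strand, was looked for in RefSeq promoter windows of the mouse build GRCm38.p6, from 250 bases before to 50 bases after a start of transcription. Of the members, 7 of 10 had windows, and Hmox1, Gclc and Gsta4 had none. The letters were found in 4 of these 7 genes (Gclm, Txnrd1, Srxn1 and Sod1), as against 14% of the 27025 genes with a window and 12.4% of all 32851 windows. By window, 4 of 12 of the members' windows held them (33.3%), and none of the 4 windows of Gpx4 or those of Nqo1 and Slc7a11 did. The matches upstream of a start are shown because NRF2 is known to act through such letters. Each is written 5′ to 3′ on the minus strand with the matching letters in capitals, and a match is a description of the letters and not a site of binding. The match of Srxn1 was centred 32 bases after its start.
Gclm, chr3:122245413-122245441: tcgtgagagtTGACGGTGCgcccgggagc
Txnrd1, chr10:82859104-82859132: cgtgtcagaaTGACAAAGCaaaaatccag
Sod1, chr16:90220696-90220724: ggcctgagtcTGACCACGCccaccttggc
Relative to the start, the centre of the matching letters lay at -130 in Gclm, -88 in Txnrd1 and -52 in Sod1.

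Gpx4 and Txnrd1 make selenoproteins, in which a TGA codon is read as selenocysteine and not as a stop. The codon is shown in capitals with its neighbours, since the selenoprotein machinery is counted among the pathway genes. In GENCODE vM21 it is codon 73 of 197 in the transcript Gpx4-202 and codon 498 of 499 in Txnrd1-201, so it is next to the last codon in Txnrd1.
Gpx4: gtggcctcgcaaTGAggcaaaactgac
Txnrd1: cagtctggctgcTGAggt

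The 10 genes spanned a wide range of expression per length. Mean FPKM over the 8 libraries was 178 for Sod1, 117 for Gpx4, 38 for Gsta4, 19.4 for Srxn1, 16.7 for Gclc, 14.5 for Gclm, 13.3 for Txnrd1, 8.91 for Slc7a11, 2.66 for Hmox1 and 2.03 for Nqo1. The constitutive enzymes therefore led, and the stress markers Hmox1 and Nqo1 were the lowest. The FPKM ranges of neighbours in this order did not overlap, except for Gclm and Txnrd1 and for Hmox1 and Nqo1. Library by library, Gclm was above Txnrd1 throughout, and Hmox1 was above Nqo1 except in HipR3. The spread over libraries was also unequal. The coefficient of variation of CPM was 3.2% for Gclc and 25.1% for Nqo1.

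**Figure D1:**
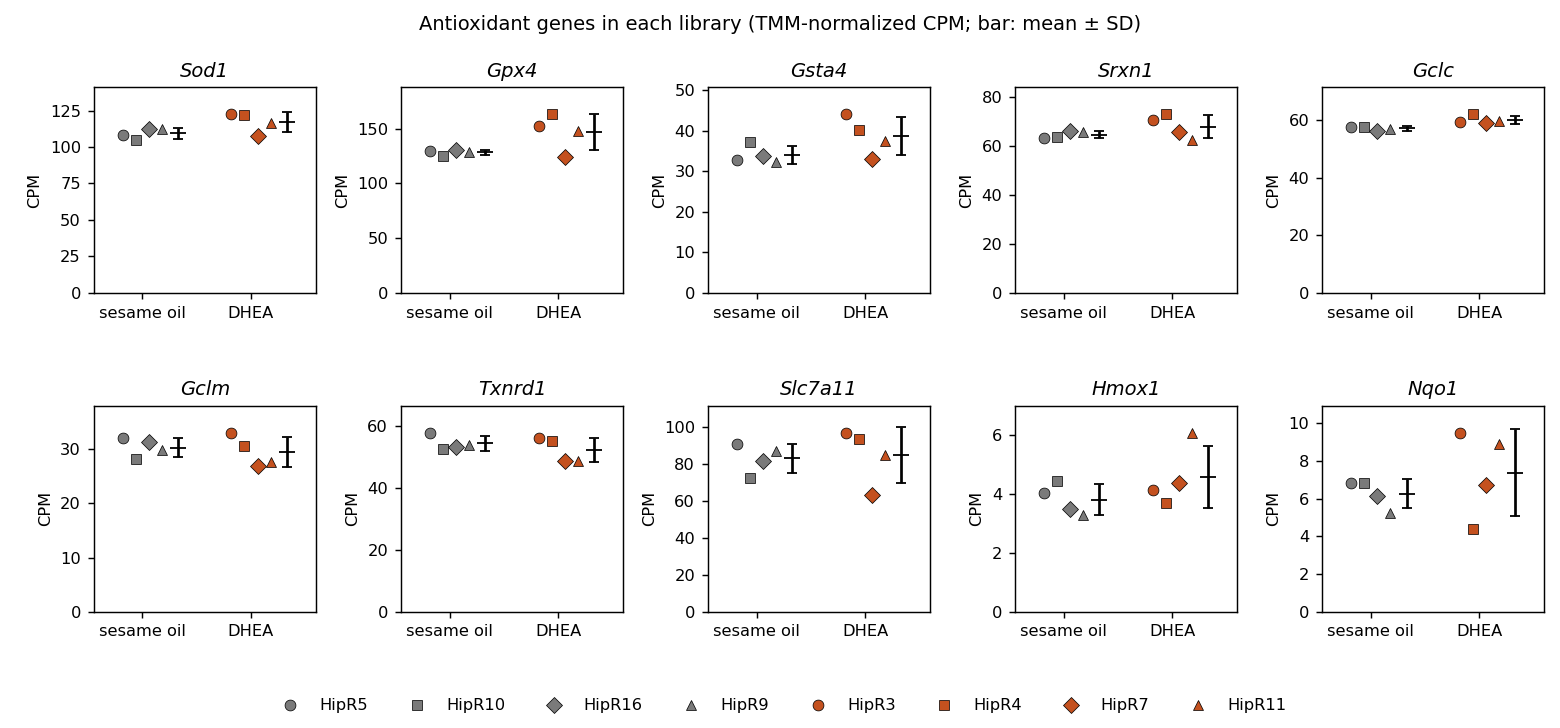
TMM-normalized CPM (y axis, from 0) of each gene in the 4 sesame oil libraries (grey) and the 4 DHEA libraries (orange), ordered by mean FPKM, with the mean ± SD beside the points. Gpx4 in HipR3, HipR4 and HipR11 sits above all control libraries, while HipR7 sits among or below them.

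Few of the antioxidant genes passed the test, and no log2 fold change among them was larger than 0.26. The threshold used for every call is an unadjusted p below 0.05, from edgeR's quasi-likelihood fit over the whole table. Gpx4 and Gsta4 rose, none fell, and 8 of 10 did not pass. That is 20% of the members higher, beside 4.82% of all 27612 genes tested higher and 4.49% lower. All members averaged 100 counts or more per library, and among the 12780 genes that did so 8.08% were higher and 7.6% were lower. The median log2 fold change was 0.08 over the members and 0.01 over all genes, and 8 of 10 members were above 0. After Benjamini-Hochberg adjustment no gene in the table passed in edgeR (0% of genes; smallest adjusted p = 0.0569), whereas 2571 passed at the unadjusted threshold and DESeq2 gave 153 after adjustment. When a change of 2-fold or more in either direction was also required, 442 genes passed (1.6%), and none of the 10 was among them. Without HipR3 and HipR4, Gpx4 and Gsta4 did not pass, Hmox1 rose and Txnrd1 fell, and the median of the members was 0.04. That is 10% each way, beside 5.51% higher and 7.25% lower of genes averaging 100 counts or more in that fit.

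Gpx4, which reduces lipid peroxides in membranes and guards against ferroptosis, gave the smallest p of the 10. It was at 152, 163, 123.6 and 148 CPM in HipR3, HipR4, HipR7 and HipR11 and at 129.8, 124.5, 130.1 and 128.6 CPM in HipR5, HipR10, HipR16 and HipR9. HipR3, HipR4 and HipR11 were above every control, and HipR7 was below every control, so the groups overlapped. The log2 fold change was 0.19 (SE 0.073, 95% interval 0.04 to 0.35; edgeR's quasi-likelihood test, Benjamini-Hochberg adjusted p = 0.413). DHEA libraries averaged 147 ± 16.6 CPM (SD, n = 4), with a wider spread than the 128 ± 2.59 CPM (SD, n = 4) of the controls. Without HipR4 the fold change was 0.13, and without HipR3 and HipR4, a choice made after seeing the data, it was 0.08, and neither passed. Its transcript has a GC content of 60.2%, higher than that of 95.9% of genes with a value. With each library's trend with GC content removed, the log2 fold change was 0.242 and passed. The part of GC content in the difference was not tested.

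Sod1, the cytosolic superoxide dismutase, showed a similar picture at a smaller size. Its CPM were 122, 122, 107.7 and 116 in HipR3, HipR4, HipR7 and HipR11 and 108, 104.6, 112.6 and 112.5 in HipR5, HipR10, HipR16 and HipR9. HipR7 again lay with the controls, and the other DHEA libraries lay above them. The difference of 0.10 (SE 0.062) did not pass (95% interval -0.03 to 0.23; edgeR, adjusted p = 0.643). Without HipR7 it was 0.14 and passed, and without HipR3 and HipR4 it was 0.03.

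Gsta4, a glutathione transferase that conjugates the lipid peroxidation product 4-hydroxynonenal, was at 44.2, 40.3, 33.0 and 37.6 CPM in HipR3, HipR4, HipR7 and HipR11. The controls HipR5, HipR10, HipR16 and HipR9 were at 32.9, 37.3, 33.7 and 32.4 CPM. HipR3 and HipR4 were highest, and the groups overlapped through HipR7 and HipR10. The log2 fold change was 0.19 (SE 0.088; edgeR's quasi-likelihood test, Benjamini-Hochberg adjusted p = 0.531). This call was fragile, since it passed in 6 of 22 alternatives, and the fold change was 0.12 without HipR3 and 0.05 without HipR3 and HipR4, neither of which passed.

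Glutathione synthesis showed no difference that passed. Gclc, the catalytic subunit of glutamate-cysteine ligase, was at 59.2, 62.0, 59.0 and 59.7 CPM in the DHEA libraries HipR3, HipR4, HipR7 and HipR11 and at 57.7, 57.7, 56.1 and 56.9 CPM in the controls HipR5, HipR10, HipR16 and HipR9. It was the only member whose groups did not overlap (1 of 10, beside 4.23% of genes averaging 100 counts or more that were separate in this direction). In the deposited FPKM, without TMM scaling, its groups did overlap, with HipR3 at 16.49 and HipR5 at 16.65. The shift was small, 0.07 (SE 0.061, 95% interval -0.06 to 0.20; edgeR, adjusted p = 0.666). Its regulatory subunit Gclm was at 33.1, 30.6, 27.0 and 27.6 CPM in the same DHEA libraries and at 32.1, 28.2, 31.3 and 29.8 CPM in the controls. The groups overlapped, with a log2 fold change of -0.04 (95% interval -0.22 to 0.14; edgeR, adjusted p = 0.89). In GENCODE vM21 an antisense gene, Gm17494, covers 4.71% of the exon bases of Gclm, and Gm6061, on the same strand, covers 3.88%. Whether strand was used in counting is not given in the sources used here.

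Slc7a11, the cystine importer of system xc-, had the lowest CPM in HipR7 and the highest in HipR3, both labelled DHEA. It was at 96.7, 93.5, 63.2 and 84.6 CPM in HipR3, HipR4, HipR7 and HipR11 and at 90.9, 72.4, 81.5 and 86.8 CPM in HipR5, HipR10, HipR16 and HipR9. The log2 fold change of 0.03 (95% interval -0.19 to 0.25; edgeR, adjusted p = 0.944) changed sign in 7 of 22 alternatives, so no direction is given.

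Neither of the members that serve thioredoxin and the peroxiredoxins passed. Txnrd1, the cytosolic thioredoxin reductase, was at 56.1, 55.4, 48.9 and 48.9 CPM in HipR3, HipR4, HipR7 and HipR11 and at 57.9, 52.6, 53.3 and 54.0 CPM in HipR5, HipR10, HipR16 and HipR9. HipR7 and HipR11 were below every control, HipR3 and HipR4 were not, and the log2 fold change was -0.06 (95% interval -0.21 to 0.09; edgeR, adjusted p = 0.762). It was -0.03 when HipR5, HipR7 or HipR11 was left out, which did not pass, and -0.16 without HipR3 and HipR4, which passed. Srxn1, sulfiredoxin, which repairs overoxidized peroxiredoxins, was at 70.8, 73.0, 65.5 and 62.3 CPM in the DHEA libraries and at 63.3, 63.5, 66.3 and 65.5 CPM in the controls. HipR3 and HipR4 were highest and HipR11 was lowest, and the log2 fold change was 0.07 (95% interval -0.07 to 0.21; edgeR, adjusted p = 0.666). It was 0.03 without HipR4, 0.11 without HipR11 and -0.02 without HipR3 and HipR4, none of which passed.

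The stress-inducible enzymes had the widest intervals. Nqo1, a quinone reductase often used as the readout of NRF2, was at 9.50, 4.38, 6.74 and 8.90 CPM in HipR3, HipR4, HipR7 and HipR11 and at 6.85, 6.84, 6.12 and 5.22 CPM in HipR5, HipR10, HipR16 and HipR9. The DHEA group held both the highest libraries and the lowest, and the log2 fold change was 0.24 (SE 0.2, 95% interval -0.17 to 0.65; edgeR, adjusted p = 0.666). Without HipR4 it was 0.41 and passed, while it was 0.09 without HipR3, 0.14 without HipR11 and 0.06 in the 6 libraries of the first accession run, none of which passed. Hmox1, heme oxygenase 1, was at 4.12, 3.70, 4.38 and 6.08 CPM in the DHEA libraries and at 4.01, 4.43, 3.49 and 3.29 CPM in the controls. HipR11 was above all others, and the remaining DHEA libraries lay among the controls. The log2 fold change was 0.26 (SE 0.19, 95% interval -0.13 to 0.66; edgeR, adjusted p = 0.663). Without HipR11 it was 0.10, and in the 6 libraries of the first accession run it was 0.03, neither of which passed. Without HipR3 and HipR4 it was 0.45 and passed.

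**Figure D2:**
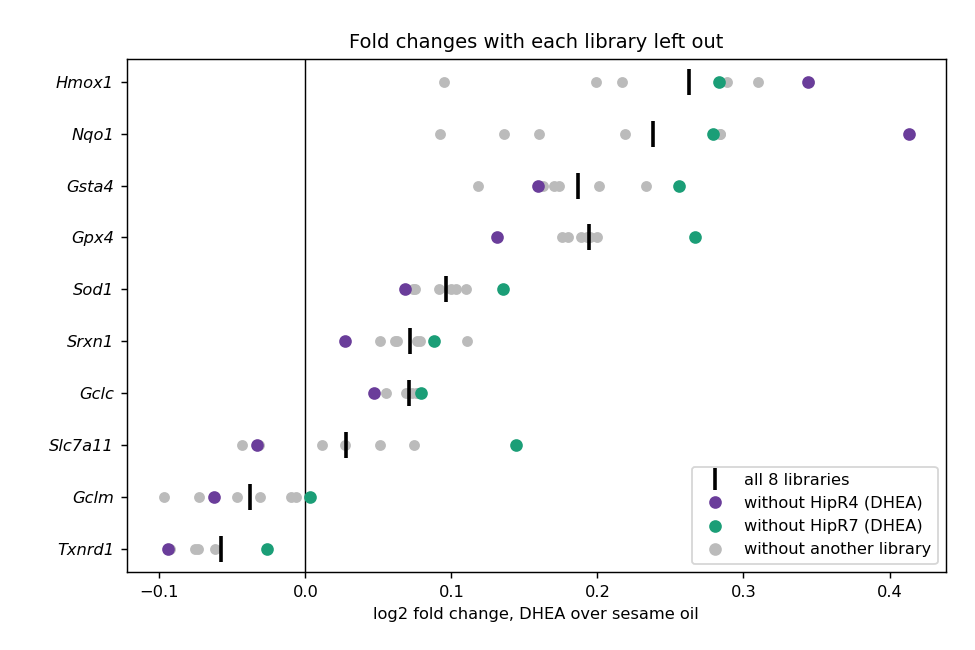
Log2 fold change of each gene (x axis, DHEA over sesame oil) in the fit with all 8 libraries (black bar) and in the fits that each omit a library (points, HipR4 in purple and HipR7 in green). Leaving out HipR4 lowered Gpx4 to 0.13 and raised Nqo1 to 0.41, and leaving out HipR7 raised Gpx4 to 0.27 and Slc7a11 to 0.14.

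Several pairs of members varied together, and these pairs were not separate sets. Over the 8 libraries, log2 CPM of Gpx4 and Sod1 had a Pearson correlation of 0.92 (Spearman 0.93), and Gclm and Txnrd1 one of 0.90 (Spearman 0.90). Gclm and Slc7a11 were at 0.79 and Nqo1 and Hmox1 at 0.68, while Hmox1 ran against Txnrd1 at -0.60 and Gclc and its partner subunit Gclm were at -0.11, or 0.11 with group means removed. Slc7a11 also went with Sod1 at 0.73 and with Gpx4 at 0.70, or 0.89 and 0.90 with group means removed. Gclc and Gsta4 each went with Gpx4 at 0.79. The points of each correlation share libraries and their scaling, so these are descriptions. HipR3 was the highest library for 5 of the 10 genes and HipR4 for 3, and HipR7 was the lowest for 4. Among 12779 other genes averaging 100 counts or more, those most like Gpx4 over the 8 libraries were Pink1 (Pearson 0.986), Cd93 (0.98) and Mrpl52 (0.969).

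**Figure D3:**
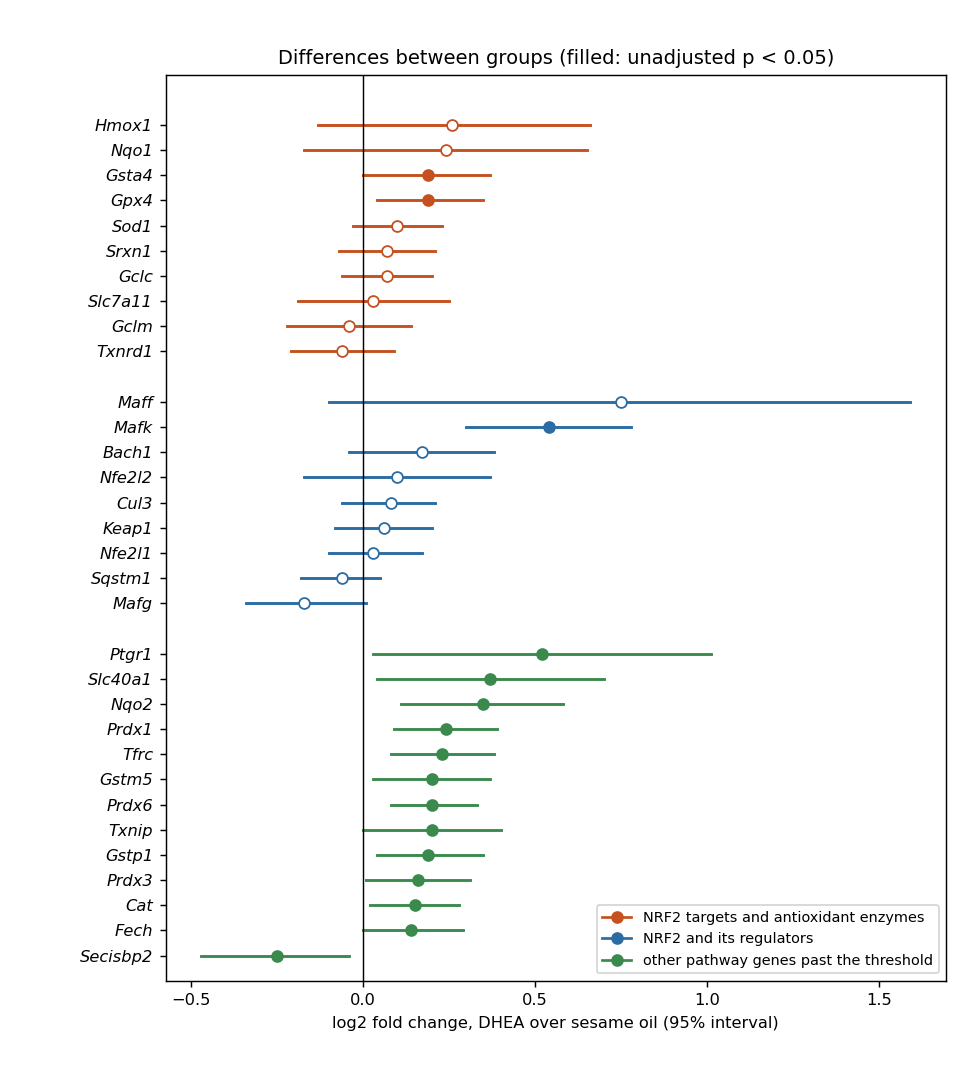
Log2 fold change (x axis, DHEA over sesame oil) with its 95% interval for the 10 genes (orange), NRF2 and its regulators (blue) and the other pathway genes past the threshold (green); filled points passed the unadjusted threshold of 0.05. Mafk at 0.54 lies well above 0, while the intervals of Nfe2l2 and Keap1 span 0.

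Of NRF2 and its regulators, 1 of 9 passed, a small MAF protein. Of all genes tested, 4.82% were higher and 4.49% lower. Mafk, a dimer partner of NRF2 and of its competitor BACH1, rose by a log2 fold change of 0.54 (SE 0.11; edgeR's quasi-likelihood test, Benjamini-Hochberg adjusted p = 0.203). It was at 12.4, 12.3, 13.7 and 14.3 CPM in HipR3, HipR4, HipR7 and HipR11 and at 8.33, 10.1, 8.28 and 9.55 CPM in HipR5, HipR10, HipR16 and HipR9. All 4 DHEA libraries were above all controls, HipR7 included, and it passed in 22 of 22 alternatives, with 0.62 when HipR3 and HipR4 were left out. An antisense gene, Tmem184a, covers 4.33% of its exon bases. The other 8 of 9 did not pass. Nfe2l2 had a log2 fold change of 0.10 (95% interval -0.17 to 0.37), its repressors Keap1 and Cul3 of 0.06 and 0.08, Bach1 of 0.17, Mafg of -0.17, Nfe2l1 of 0.03 and the autophagy receptor Sqstm1, the most abundant of the list by FPKM, of -0.06. Maff, at a mean count of 27.6, had 0.75 (95% interval -0.10 to 1.59).

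Of 72 further genes of the pathway, those 9 included, 13 rose and 1 fell, which is 18.1% higher beside the 4.82% of all genes tested. Among the 66 of them that averaged 100 counts or more, 12 rose (18.2%) and 1 fell, beside 8.08% and 7.6%. The fold change was above 0 in 60 of 72 and the median was 0.09. None passed after adjustment. Without HipR3 and HipR4, 5 rose (6.94%) and 3 fell (4.17%), beside 3.99% and 3.89% of the 27062 genes tested in that fit, and 5.51% and 7.25% of those averaging 100 counts or more. Those shares are near the background. Mafk, Prdx6, Cat and Tfrc still rose there, joined by the epoxide hydrolase Ephx1 (0.29), and Cbr3 (-0.40), Prdx2 (-0.15) and Sqstm1 (-0.12) fell. The median of the 72 was then 0.02. With all libraries, every DHEA library was above every control in 6 of the 66 genes (9.09%). The share among all genes averaging 100 counts or more was 4.23%. The 6 were Mafk, Prdx1, Prdx6, Cat, Nqo2 and Slc48a1, of which Slc48a1 did not pass.

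Peroxiredoxins are thiol enzymes that remove hydrogen peroxide. Of 11 thioredoxin and peroxiredoxin genes, 4 rose (Prdx1, Prdx3, Prdx6 and Txnip) and none fell. Of all genes averaging 100 counts or more, 8.08% rose and 7.6% fell. Prdx1 was at 134, 148, 116 and 123 CPM in HipR3, HipR4, HipR7 and HipR11 and at 108.9, 108.6, 108.4 and 114.6 CPM in HipR5, HipR10, HipR16 and HipR9, a log2 fold change of 0.24 (SE 0.072; edgeR's quasi-likelihood test, Benjamini-Hochberg adjusted p = 0.293). Prdx6, the 1-cysteine peroxiredoxin enriched in astrocytes, was at 165, 184, 163 and 174 CPM in the DHEA libraries and at 146, 148, 145 and 157 CPM in the controls, a log2 fold change of 0.20 (SE 0.06, adjusted p = 0.293). In both genes every DHEA library exceeded every control, as in 4.23% of all genes averaging 100 counts or more. Prdx3, its mitochondrial relative, rose by 0.16 (adjusted p = 0.524) and Txnip, the inhibitor of thioredoxin, by 0.20 (adjusted p = 0.531). Prdx5, the most abundant of the list, was at 0.08, and Prdx2 at 0.01. Without HipR3 and HipR4, Prdx6 was at 0.17 and still passed, while Prdx1 at 0.11, Prdx3 at 0.05 and Txnip at 0.20 did not. Prdx2 fell by 0.15, so 1 of the 11 rose and 1 fell (9.09% each way). Of genes averaging 100 counts or more in that fit, 5.51% rose and 7.25% fell. Over the alternatives, Prdx3 passed in 12 of 22 and Txnip in 8 of 22.

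The other lists moved in few genes. Of all genes averaging 100 counts or more, 8.08% rose and 7.6% fell. The shares without HipR3 and HipR4 were 5.51% and 7.25%. Of 13 genes of glutathione recycling and conjugation, Gstm5 (0.20, adjusted p = 0.465) and Gstp1 (0.19, adjusted p = 0.42) rose and none fell, while Gstm1, the most abundant, was at 0.00. Cat, catalase, rose by 0.15 (adjusted p = 0.488) as 1 of 8 further dismutase, catalase and peroxidase genes, and its groups did not overlap; Sod2, the most abundant, was at 0.06. Of 6 genes that supply NADPH none passed, and Taldo1, the most abundant, was at 0.10. Of 9 genes of heme and iron handling, the transferrin receptor Tfrc (0.23, adjusted p = 0.322), the iron exporter Slc40a1 (0.37, adjusted p = 0.483) and ferrochelatase, Fech (0.14, adjusted p = 0.531), rose, and ferritin heavy chain, Fth1, was at 0.14, not past the threshold. Tfrc was at 150.0, 162, 165 and 147 CPM in HipR3, HipR4, HipR7 and HipR11 and at 122, 149.7, 121.5 and 139 CPM in the controls HipR5, HipR10, HipR16 and HipR9, with HipR10 among the DHEA values. Without HipR3 and HipR4, Tfrc at 0.22 and Cat at 0.14 still passed, and Gstm5 at 0.06, Gstp1 at 0.10, Slc40a1 at 0.14 and Fech at 0.08 did not. The call of Fech passed in 5 of 22 alternatives.

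Among 10 further genes of quinone, aldehyde and epoxide detoxification, Nqo2 (0.35, SE 0.11, adjusted p = 0.341) and Ptgr1 (0.52, adjusted p = 0.516) rose and none fell. Of all genes tested, 4.82% rose and 4.49% fell. Nqo2, a relative of Nqo1 that uses other electron donors, was at 12.8, 12.8, 11.1 and 10.3 CPM in HipR3, HipR4, HipR7 and HipR11 and at 8.93, 9.48, 9.33 and 9.25 CPM in the controls. Its groups did not overlap, unlike those of Nqo1. Nqo2 was at 0.20 and Ptgr1 at 0.24 without HipR3 and HipR4, and neither passed. Cbr1, the most abundant of the list, was at 0.03. Of 6 genes of selenoprotein synthesis, none rose and Secisbp2, which binds the selenocysteine insertion element of transcripts such as those of Gpx4 and Txnrd1, fell by 0.25 (adjusted p = 0.463). It was at 13.3, 12.4, 12.9 and 14.8 CPM in the DHEA libraries and at 16.8, 16.6, 16.0 and 14.1 CPM in the controls, so the groups overlapped through HipR11 and HipR9. It was at -0.21 without HipR3 and HipR4 and did not pass. Sephs2, the most abundant of that list, was at 0.16.

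Markers of other cell types moved with several of these genes. In bulk tissue a change in the number of cells of a type and a change in RNA per cell cannot be told apart. All 8 of 8 oligodendrocyte and myelin markers rose, and their summed CPM was 6387, 8075, 6316 and 6551 in HipR3, HipR4, HipR7 and HipR11 and 5111, 5090, 4309 and 6145 in HipR5, HipR10, HipR16 and HipR9, without overlap also when HipR3 and HipR4 are set aside. Of 8 markers each, 5 rose for astrocytes (most abundant by FPKM Slc1a2), 4 for endothelium (Itm2a) and 4 for microglia, and none fell. Of all genes averaging 100 counts or more, 8.08% rose and 7.6% fell. For neurons, with Snap25 the most abundant, none rose and Rbfox3 fell by 0.16. Of 8 hippocampal principal cell markers 1 rose (Spink8) and none fell, and of 8 meningeal fibroblast markers none passed. With HipR3 and HipR4 left out, 6 of 8 myelin markers, 3 of 8 astrocyte markers, 2 of 8 endothelial markers and 0 of 8 microglial markers rose, and Flt1, an endothelial marker, fell. In that fit 2 neuronal markers, 3 principal cell markers and 2 meningeal markers fell, and none of these lists had a marker that rose. Of genes averaging 100 counts or more, 5.51% rose and 7.25% fell there. The microglial marker P2ry12, called with all libraries, was at 56.3, 72.7, 47.8 and 41.6 CPM in HipR3, HipR4, HipR7 and HipR11 and between 38.7 and 45.6 CPM in the controls. No marker was at 0 in all libraries. The share of counts on 13 mitochondrially encoded genes was 7.87%, 9.34%, 7.58% and 7.29% in the DHEA libraries and 6.37%, 7.23%, 6.99% and 6.87% in the controls, again without overlap.

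The glial and vascular sums by library were as follows. Astrocyte markers summed to 6087, 7264, 6492 and 6393 CPM in HipR3, HipR4, HipR7 and HipR11 and to 5358, 5690, 5960 and 6183 CPM in HipR5, HipR10, HipR16 and HipR9. Microglial markers summed to 388, 456, 363 and 342 CPM in the DHEA libraries and to 310.0, 337, 329.7 and 363 CPM in the controls. HipR4 was highest in both, and the groups overlapped.

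Over all 8 libraries, Gpx4 followed the endothelial sum most closely of the 9 marker lists. The markers in that sum were not alike. Slco1a4, Ly6c1, Itm2a and Pecam1 rose and Cldn5 did not pass at 0.20, while Flt1, Cdh5 and Esam were at -0.06, -0.02 and 0.01. That sum was 368, 397, 323 and 363 CPM in HipR3, HipR4, HipR7 and HipR11 and 317, 299, 312.5 and 332 CPM in the controls, so HipR7 was the lowest DHEA library in both measures but within the range of the controls in the sum. The Pearson correlation with log2 CPM of Gpx4 was 0.951 (Spearman 0.714) over 8 libraries and 0.846 without HipR4 and HipR3, the libraries farthest from the median. With the choroid plexus sum it was -0.363 over 8 libraries and 0.944 without HipR4 and HipR9. With the endothelial sum it was 0.991 within the DHEA libraries and 0.626 within the controls. Sod1 followed the same sum at 0.916. Gclc went with the myelin sum at 0.886 (0.594 without HipR16 and HipR4), and Gsta4 with the red blood cell sum at 0.772. Of 8 red blood cell markers 1 rose, beside 4.82% of all genes tested. Without HipR3 and HipR4 none rose and 1 fell, beside 3.99% higher and 3.89% lower. Srxn1 went with the microglial sum at 0.874 (0.722 without HipR4 and HipR5). For Sod1, Gclc, Gsta4 and Srxn1 the list named was picked as the one of 9 with the largest correlation. Within the DHEA libraries and within the controls, Gclc with the myelin sum was at 0.996 and 0.376. Gsta4 with the red blood cell sum was at 0.955 and 0.651, and Srxn1 with the microglial sum at 0.924 and 0.495. These markers' part in the differences of Gpx4, Sod1, Gclc, Gsta4 and Srxn1 was not tested.

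Nqo1 followed the choroid plexus, a secretory tissue within the ventricles beside the hippocampus. The sum of its 8 markers was 4625, 103, 2294 and 4264 CPM in HipR3, HipR4, HipR7 and HipR11 and 3215, 2106, 2345 and 532 CPM in HipR5, HipR10, HipR16 and HipR9. Ttr, the most abundant, was at 4015 CPM in HipR3 and 60.4 CPM in HipR4, and no marker was at 0 in any library. HipR3 and HipR11 were highest and HipR4 lowest in both Nqo1 and the sum. The Pearson correlation was 0.90 (Spearman 0.905) over 8 libraries, 0.902 without HipR4 and HipR9, 0.964 within the DHEA group and 0.915 within the control group. None of the 8 choroid plexus markers passed, with a median log2 fold change of 0.45. When HipR3 and HipR4 were left out, 2 of 8 (Clic6 and Otx2) rose, beside 5.51% of genes averaging 100 counts or more. The meningeal fibroblast sum went with Nqo1 at 0.809, and Hmox1 went with the choroid plexus sum at 0.514. Their part in the level of Nqo1 was not tested.

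**Figure D4:**
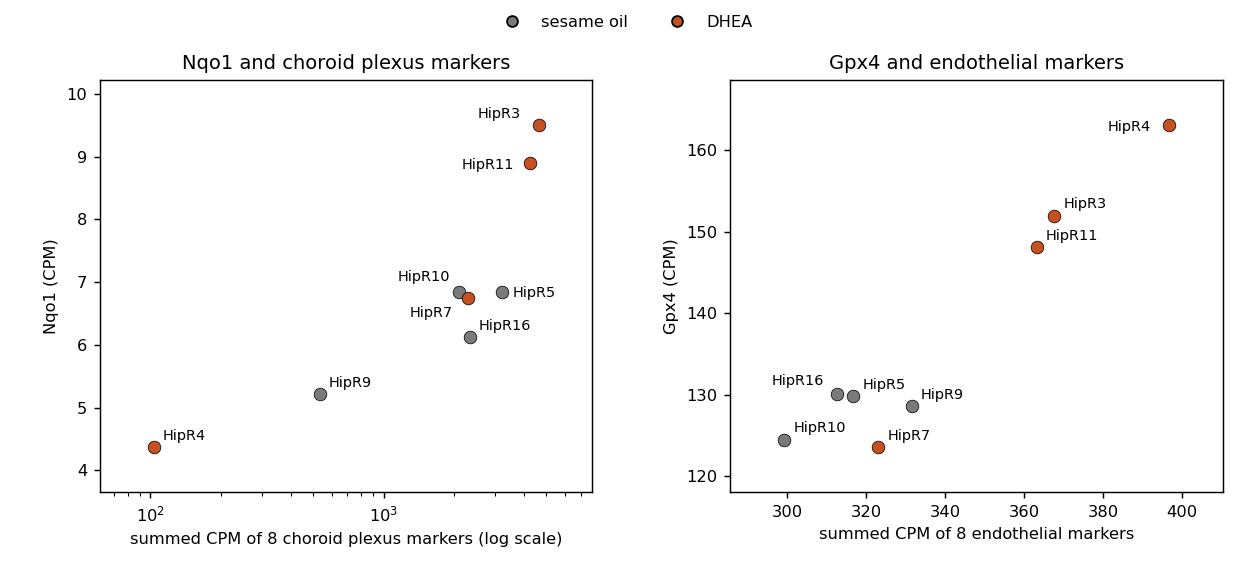
Nqo1 (CPM, left) against the summed CPM of 8 choroid plexus markers on a log axis, and Gpx4 (CPM, right) against that of 8 endothelial markers, 1 point per library, grey for sesame oil and orange for DHEA; the y axes do not start at 0. HipR4 is lowest on the left, where its choroid plexus sum is 103 CPM, and highest on the right.

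**Figure D5:**
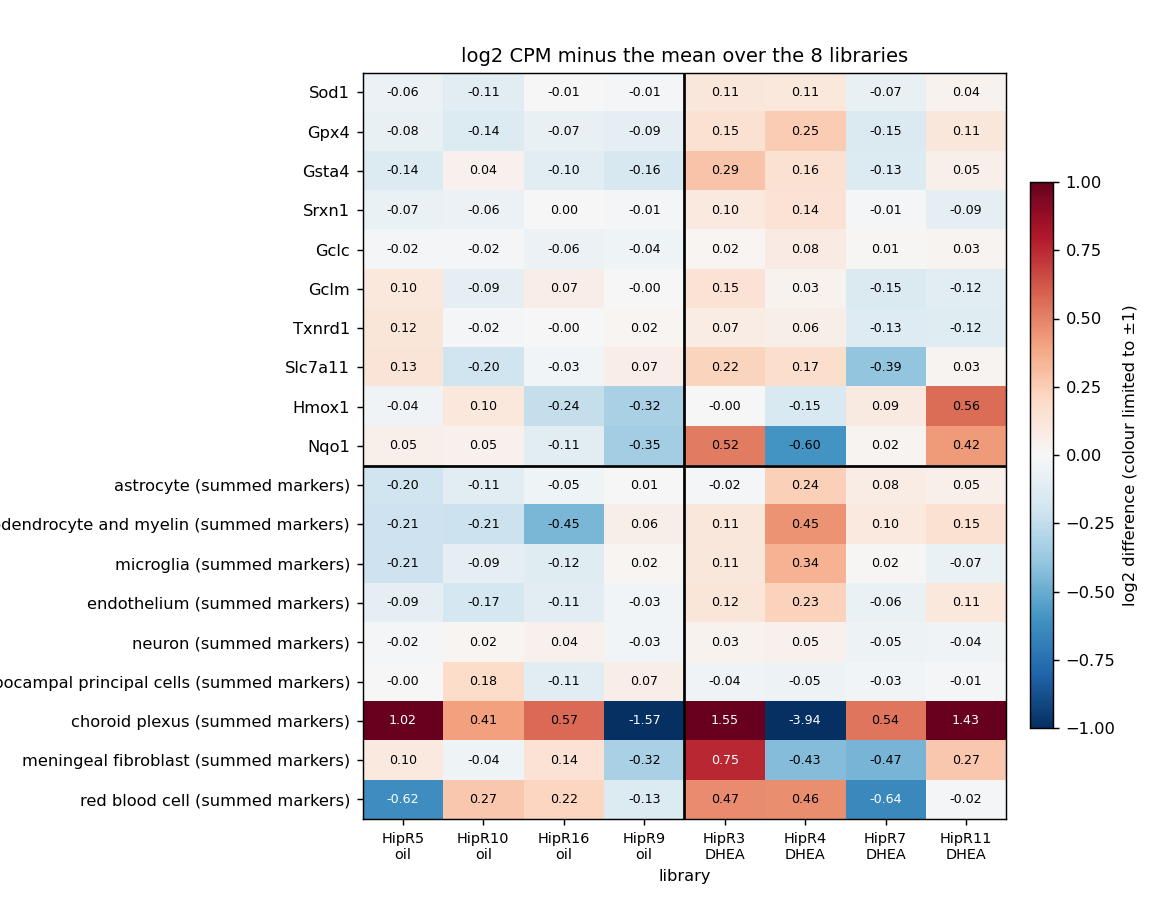
Log2 CPM of each gene (upper rows) and of each summed marker list (lower rows) minus its mean over the 8 libraries (columns), with colours limited to ±1. Choroid plexus markers range from -3.94 in HipR4 to 1.55 in HipR3, and Nqo1 has its lowest value, -0.60, and its highest, 0.52, in the same libraries.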

How the data were processed

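RNA-seq of 4 libraries labelled DHEA and 4 labelled sesame oil was analysed. Read counts per gene were deposited without normalization. The authors trimmed reads (fastp in the submitters' processing notes), aligned them with HISAT2 (build GRCm39 in those notes) and counted them with HTSeq; versions and the strand setting are not given in the sources used here. The deposited FPKM values equal the count divided by the library total and by 1 length per gene, within 0.1% in 25234 of 25234 genes, so they hold no further measurement. FPKM was used only for levels between genes and in an alternative. A total of 0 columns could not be mapped to a sample, and 0 rows lacked a gene name.

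Counts of genes with at least 1 count were tested with edgeR 4.0.16 in R 4.3.3 (TMM, quasi-likelihood test, prior count 0.125), with Benjamini-Hochberg adjustment over all 27612 genes; adjusted p-values are those of this fit, and "rose" and "fell" mean an unadjusted p below 0.05. The study names DESeq2 without covariates, which was kept as an alternative (DESeq2 1.42.0). The scripts were tested on simulated data. Correlations used log2(CPM + 0.5). No list was tested as a set, and single p-values measure only the spread between these libraries.

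The members and lists were chosen with earlier results of these data known. Genes named were the 10 members, the NRF2 regulators, pathway genes with an unadjusted p under 0.05 and the most abundant gene of each list by FPKM, and the 3 genes most like the member with the smallest p. Pomc and Avpr1a, Prdx2, Hmox1, Txnrd1, Ephx1, Cbr3 and Sqstm1 under single alternatives, and Slc48a1, were named after their values were seen. So were the marker genes P2ry12, Flt1, Slco1a4, Ly6c1, Pecam1, Cldn5, Cdh5, Esam, Clic6, Otx2, Rbfox3, Spink8, Neurod6, Prox1 and Wfs1. Txnrd2, Gpx3, Aox1 and Trnau1ap are named because a library stood apart in them. The alternatives were DESeq2, RLE size factors, robust moderation, at least 10 counts, filterByExpr, prior count 1, limma-trend (limma 3.58.1) on log2(FPKM + 1) and log2(FPKM + 0.1), leaving out the 13 mitochondrially encoded genes (matched by name, since the table does not prefix them), removal of each library's GC trend (GC known for 92.7% of genes averaging 10 counts or more), thinning to 31483772 counts, the accession run as a covariate or its first 6 libraries alone, and leaving out each library. Leaving out HipR3 and HipR4 together was added after seeing the data. Promoter letters came from RefSeq (GRCm38.p6) and codons and exon overlaps from GENCODE vM21; neither is the build of the counts, so no count was tied to a coordinate. The columns of the authors' own comparisons were not used for any value. Some marker genes are not reported here.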

Additional observations from a re-analysis of the deposited data

Results flagged for a closer look

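Each group of 4 libraries was examined for a library far from the others, for the 10 members, the 72 pathway genes, the 9 summed marker lists, the total counts and the mitochondrial share. Of 186 groups examined 6 had such a library, and chance gives about 1 in 20, or 9.3 groups. In the DHEA group, Txnrd2 was at 8.43 CPM in HipR3 and between 7.43 and 7.54 CPM in the others, a gap of 0.888 of the group's range. Gpx3 was at 8.32 CPM in HipR11 and between 5.44 and 5.85 CPM in the others (0.857 of the range). Aox1 was at 6.12 CPM in HipR4 and between 10.6 and 11.2 CPM in the others (0.875). Trnau1ap was at 11.6 CPM in HipR4 and between 9.14 and 9.37 CPM in the others (0.906). The summed oligodendrocyte and myelin markers were at 8075 CPM in HipR4 and between 6316 and 6551 CPM in the others (0.866). In the sesame oil group, Prdx1 was at 114.6 CPM in HipR9 and between 108.4 and 108.9 CPM in the other libraries (0.921).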

How the results depend on the processing

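The number of members past the unadjusted threshold was 2 in the reported fit, 1 with DESeq2, RLE size factors, at least 10 counts, filterByExpr, the GC trend removed, thinning, the accession run as a covariate and the first 6 libraries alone, and 0 with limma-trend at either pseudocount, and it ranged from 1 to 3 when a library was left out. Genes past it in the whole table numbered 2571 in the reported fit. They numbered 2106 to 2779 in the other alternatives and 1786 to 3667 when a library was left out. Without HipR3 and HipR4, a choice made after seeing the data, the members past the threshold were Hmox1, higher, and Txnrd1, lower. That is 10% each way, beside 3.99% higher and 3.89% lower of all genes in that fit. Of genes averaging 100 counts or more, 5.51% were higher and 7.25% lower there. Pathway genes numbered 14 of 2571 genes in the whole table, 8 of 2135 without HipR3 and HipR4, and, when a library was left out, 6 (of 2051, without HipR16) to 22 (of 3667, without HipR7). Mafk, Prdx6 and Tfrc passed in all 22 alternatives, Prdx1 and Nqo2 in 21, Gpx4 in 18, Gstp1 in 18, Secisbp2 in 18, Cat in 15, Gstm5 in 15, Ptgr1 in 14, Slc40a1 in 12, Prdx3 in 12, Txnip in 8, Gsta4 in 6 and Fech in 5, with Gsta4, Fech, Txnip and Prdx3 lost under DESeq2. Gpx4 had 0.158 and 0.159 with limma-trend at pseudocounts of 1 and 0.1 and did not pass. Genes with an adjusted p under 0.05 numbered 0, 153 with DESeq2, 4 with robust moderation, 4 with the accession run, 38 in the first 6 libraries, 1 without HipR3 and HipR4, and 0 to 93 (without HipR7) when a library was left out. At the study's thresholds 442 genes became 164 with DESeq2, 284 with at least 10 counts, 62 with filterByExpr, and 1 and 48 with limma-trend at pseudocounts of 1 and 0.1. The sign turned for Gclm without HipR7 (fits without 1 library -0.0968 to 0.00297), for Srxn1 without HipR3 and HipR4 (-0.0219), and for Slc7a11 with limma-trend (-0.0113 and -0.0135), the GC trend removed (-0.0403), without HipR3 and HipR4 (-0.172), and in 3 of the fits without 1 library (all fits -0.0437 to 0.144); the cause was not tested. No paired analysis was possible because the labels give no replicate numbers and tie no library to a litter; the numbers used here only follow accession order. Among the 10 members, Hmox1 and Nqo1 had the lowest mean counts, 147 and 240.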
